A study of Mus musculus with 5 samples.

Results

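The collagen and laminin genes of the mouse brain were followed through the first 10 days after a small stroke. The members were the genes whose symbols have the form of a collagen alpha chain (Col, a type number, a, a chain number) or of a laminin alpha, beta or gamma chain (Lama, Lamb or Lamc with a number). The rule found 44 of the 19221 genes in the table, 34 collagens and 10 laminins, without using any measured value. They were divided by the known assembly of their proteins into 10 fibrillar collagens, 16 basement membrane members (6 collagens of types IV, XV and XVIII and the 10 laminins) and 18 other collagens.

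RNA was sequenced from the caudate putamen, the dorsal striatum, of male C57BL/6 mice aged 9 weeks. The stroke was photothrombotic: rose bengal, a dye that is excited by green light and then damages and clots the vessels, was injected at 100 mg/kg into the abdomen, and 5 min later a fibre placed 3 mm below the dura lit the striatum at 532 nm and 30 mW for 2 min. The 4 stroke groups were taken 4 hours, 1 day, 3 days and 10 days later, and each was a pool of 6 animals sequenced as 1 library. The sham library pooled the opposite striatum of the operated mice, where the fibre was placed and the laser was lit before the dye was given. The sham tissue therefore shared the surgery and the dye, came from brains with a stroke on the other side, and carried no time label, and the sources used here do not state how many animals it pooled. With 1 library per group there was no replicate spread and no test was possible, so every difference below is between 5 libraries.

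Collagens are secreted proteins built from 3 alpha chains wound into a triple helix. Fibrillar collagens pack side by side into the strong fibres of connective tissue and scars, whereas type IV collagen forms a sheet-like network that, with laminins, makes the basement membrane around vessels and at the surface of the brain. Laminins are cross-shaped trimers of an alpha, a beta and a gamma chain, and in the brain the vessel wall is the main place where they and type IV collagen lie. Healthy brain tissue holds little fibrillar collagen, which lies mainly in the meninges and around large vessels.

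The levels are RPKM, read counts scaled to exon length and library depth. The text uses 2 rules of size. Under the first, a gene was higher or lower by size when log2((stroke RPKM + 1)/(sham RPKM + 1)) was at least 1 or at most -1. Most members lay below 1 RPKM, where the added 1 hides even large ratios: 14 of 44 reached 1 RPKM in a library, against 12783 of 19221 genes in all. A second rule, chosen after the values were seen, took the plain RPKM ratio: a gene was higher or lower when it differed at least 2-fold and the 95% counting interval of its ratio excluded 1. Those intervals came from reads recovered from the RPKM values of 38 members, covered counting error only, and say nothing of variation between animals. The other 6 members (Col2a1, Col8a1, Col11a2, Col17a1, Col20a1 and Lama1) gave no whole reads and have ratios without intervals.

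The 5 libraries held between 42261790 and 48013867 reads, so depth differed little between them. Scarce members rested on few reads (Col5a2 on 18 in the sham library, Col3a1 on 41), and their intervals are wide. The libraries did differ in scale, since rescaling by the median gene (median-of-ratios) moved the 4 stroke libraries by 0.37, -0.11, 0.14 and 0.16 on the log2 scale at 4 hours and at days 1, 3 and 10. Ratios after that rescaling are called rescaled ratios. Markers of the striatal medium spiny neuron, the principal neuron of the labelled tissue, summed to 1806 RPKM in the sham library and to at least 901 RPKM in every stroke library.

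Promoter sequences are shown for Col3a1, Col5a3 and Col4a6, which had ratios of 24.1, 4.48 and 15.2 on day 10 and whose 250 bases before the start touch no annotated exon. Col3a1 encodes the chain of type III collagen, Col5a3 a chain of the fibril-nucleating type V collagen and Col4a6 a minor chain of type IV collagen. The sequences are from RefSeq on GRCm38.p6 and lie at chr1:45311288-45311537 (plus strand), chr9:20815068-20815317 (minus strand) and chrX:141474077-141474326 (minus strand). They run 5′ to 3′ on the strand of the gene, and capitals mark the TATA box letters (TATAAA), the CCAAT box (CCAAT) and the GC box (GGGCGG), searched on both strands.
Col3a1: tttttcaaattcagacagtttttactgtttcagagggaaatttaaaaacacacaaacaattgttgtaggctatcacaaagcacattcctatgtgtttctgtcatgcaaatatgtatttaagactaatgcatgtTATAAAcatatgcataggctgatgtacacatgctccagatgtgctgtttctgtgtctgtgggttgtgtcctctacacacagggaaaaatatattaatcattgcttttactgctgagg
Col5a3: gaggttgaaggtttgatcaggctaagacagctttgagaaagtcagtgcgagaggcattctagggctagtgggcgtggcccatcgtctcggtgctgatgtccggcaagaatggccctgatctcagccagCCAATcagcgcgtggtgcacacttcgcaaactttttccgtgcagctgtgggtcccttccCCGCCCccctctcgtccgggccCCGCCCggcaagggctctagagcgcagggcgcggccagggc
Col4a6: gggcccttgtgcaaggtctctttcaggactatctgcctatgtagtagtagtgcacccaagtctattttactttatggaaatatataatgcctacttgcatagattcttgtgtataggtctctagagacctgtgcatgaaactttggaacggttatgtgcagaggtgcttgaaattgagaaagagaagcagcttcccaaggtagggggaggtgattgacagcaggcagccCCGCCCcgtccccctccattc

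The Col3a1 window held the TATA box letters 117 bases before the start. The Col5a3 window held 1 CCAAT box and 2 GC boxes, and the Col4a6 window 1 GC box 21 bases before the start. Entries were found for 32 of the 44 members, in 35 windows. Of the 7 fibrillar windows, 2 held TATAAA, 3 held CCAAT and 6 held GGGCGG. Of the 13 basement membrane windows, the same letters were found in 0, 5 and 6. Among all 32851 promoter windows of this length, 12.4% held TATAAA, 33.8% CCAAT and 32.7% GGGCGG. These matches describe the letters in the windows only.

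The fibrillar collagens stood apart from sham mainly on day 10, with smaller ratios on day 3 and levels mostly below sham on day 1. Type I collagen, the main fibre of scar tissue, is a trimer of Col1a1 and Col1a2 chains. Col1a1 (chr11:94936224-94953042, plus strand, GRCm38) measured 0.343 RPKM in the sham library, 0.385 at 4 hours, 0.184 on day 1, 0.653 on day 3 and 3.38 on day 10. Col1a2 (chr6:4504814-4541544, plus strand) measured 0.245, 0.319, 0.118, 0.314 and 1.16 RPKM in the same order. Both chains were lowest on day 1 and highest on day 10. On day 10 the ratio to sham was 9.87 (counting interval 7.38 to 13.4; rescaled 8.85) for Col1a1. For Col1a2 it was 4.73 (3.64 to 6.23; rescaled 4.25).

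Type III collagen, found with type I in the walls of vessels and in early scars, is a trimer of Col3a1 (chr1:45311538-45349706, plus strand) alone. Col3a1 measured 0.093 RPKM in the sham library, 0.126 at 4 hours, 0.055 on day 1, 0.412 on day 3 and 2.24 on day 10, that is 41 reads in the sham library and 1054 on day 10. Its day 10 ratio, 24.1 (15.5 to 39.4; rescaled 21.6), was the highest of the 44 members. It was already higher on day 3, by a ratio of 4.43 (2.71 to 7.57), when Col1a1 stood at 1.91 (1.34 to 2.74) and Col1a2 at 1.28 (0.918 to 1.79).

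Col1a1 and Col3a1 were the members higher by size on day 10, with log2 differences of 1.71 and 1.57. Of all genes, 2.79% were higher by size and 0.114% lower on day 10, and no member was lower. At 4 hours, day 1 and day 3 no member passed this rule in either direction, while 1.46%, 2.22% and 6.01% of all genes were higher and 0.723%, 0.895% and 0.411% lower.

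**Figure D1:**
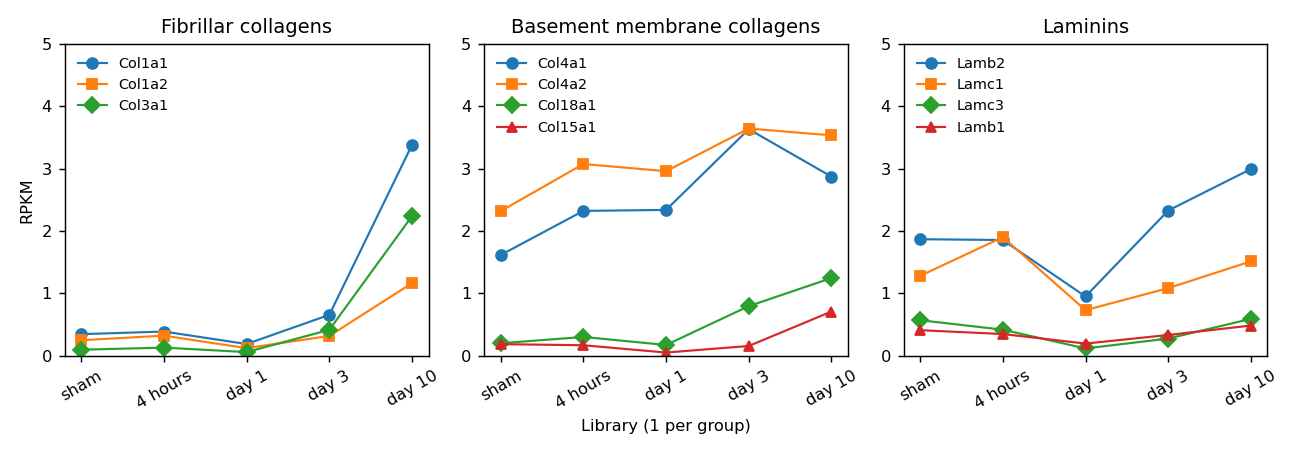
RPKM (vertical axis) in each of the 5 libraries (horizontal axis, 1 library per group, so no error bars) for selected fibrillar collagens, basement membrane collagens and laminins. Col1a1, Col3a1 and Col1a2 stand highest on day 10, at 3.38, 2.24 and 1.16 RPKM, while Lamb2 and Lamc1 dip on day 1 and Col4a1 and Col4a2 are lowest in the sham library.

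The minor fibrillar collagens followed at lower levels. Type V collagen starts fibril assembly and limits fibre width. Col5a2 measured 0.042 RPKM in the sham library, 0.057 at 4 hours, 0.027 on day 1, 0.086 on day 3 and 0.232 on day 10, a day 10 ratio of 5.56 (2.72 to 12.8). Col5a3 measured 0.095, 0.121, 0.171, 0.480 and 0.425 RPKM in that order, and Col5a1 0.107, 0.159, 0.079, 0.268 and 0.289. Col5a3 and Col5a1 were near their day 10 level already on day 3, and Col5a2 was below it. The day 3 ratios were 5.06 (2.84 to 9.62) for Col5a3 and 2.49 (1.46 to 4.40) for Col5a1, and the interval of Col5a2, 0.877 to 5.24, included 1. On day 10 Col5a3 stood at a ratio of 4.48 (2.52 to 8.53) and Col5a1 at 2.69 (1.61 to 4.69).

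Col27a1, which encodes a fibrillar collagen of developing cartilage, had a day 10 ratio of 2.78 (1.62 to 5.00) at a level of 0.176 RPKM. Col11a1, a chain of cartilage type XI collagen, did not pass, with a ratio of 2.06 (0.822 to 5.70) from 15 reads in the sham library and 33 on day 10. Col2a1, the main cartilage collagen, was at or below 0.091 RPKM in all 5 libraries. Col11a2 was the only fibrillar collagen below sham on day 3. It measured 1.33 RPKM in the sham library, 2.41 at 4 hours, 0.502 on day 1, 0.561 on day 3 and 1.62 on day 10, and was the only fibrillar member at 1 RPKM or more in the sham library. Its day 1 and day 3 ratios, 0.378 and 0.422, have no counting interval. Without it, the summed level of the other 9 fibrillar collagens was 1.04 RPKM in the sham library, 1.29 at 4 hours, 0.777 on day 1, 2.44 on day 3 and 8.0 on day 10.

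Under the second rule, 7 of the 8 fibrillar collagens with recovered reads were higher on day 10, and the same number passed after rescaling. Of all 17303 genes with recovered reads, 8.66% were higher and 0.595% lower on day 10. These shares are not matched for length or depth: the members with recovered reads had a median exon length of 8006 bases and a median of 77.1 reads per library, against 3416 bases and 237 reads over all genes. On day 3, 3 of the 8 were higher (Col3a1, Col5a1 and Col5a3), beside 13.5% of all genes higher and 3.01% lower.

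**Figure D2:**
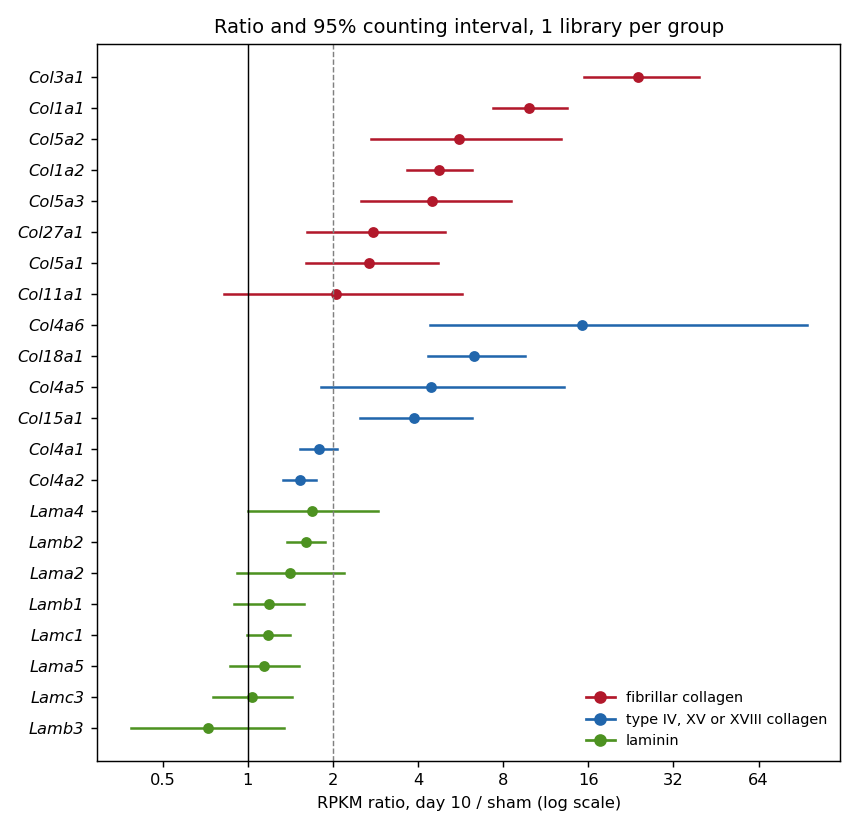
RPKM ratio of the day 10 library to the sham library (horizontal log axis) with its 95% counting interval (bars) for the fibrillar collagens, the type IV, XV and XVIII collagens and the laminins that have recovered reads and are reported here; the solid line marks 1 and the dashed line 2. The fibrillar ratios run from 2.06 to 24.1, and the laminin ratios from 0.724 to 1.68.

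The basement membrane collagens split into an abundant pair with ratios near 2 or below and 4 scarcer genes with higher ratios on day 10. Col4a1 and Col4a2 encode the chains of the common type IV collagen trimer of all vessel walls. Col4a1 (chr8:11198423-11312826, minus strand) measured 1.61 RPKM in the sham library, 2.32 at 4 hours, 2.34 on day 1, 3.63 on day 3 and 2.87 on day 10. Col4a2 (chr8:11312805-11449287, plus strand) measured 2.32, 3.07, 2.96, 3.64 and 3.53 RPKM in that order. Both were lowest in the sham library and highest on day 3. Col4a1 passed the second rule on day 3 with a ratio of 2.25 (1.95 to 2.61; rescaled 2.04) and was at 1.78 (1.53 to 2.07) on day 10. Col4a2 stood at 1.57 (1.37 to 1.81) and 1.53 (1.33 to 1.75) at those times, above 1 but under 2-fold.

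Col18a1 and Col15a1 encode the multiplexin collagens of basement membranes, and Col18a1 is the source of the fragment endostatin. Col18a1 measured 0.197 RPKM in the sham library, 0.298 at 4 hours, 0.169 on day 1, 0.792 on day 3 and 1.24 on day 10, with ratios of 4.03 (2.69 to 6.19) on day 3 and 6.32 (4.32 to 9.54) on day 10. Col15a1 measured 0.182, 0.165, 0.048, 0.153 and 0.705 RPKM, and was thus below sham on day 1 and above it on day 10. Its ratio was 0.261 (0.096 to 0.618; rescaled 0.281) on day 1, 0.838 (0.446 to 1.55) on day 3 and 3.87 (2.50 to 6.19; rescaled 3.47) on day 10. The day 3 intervals of the pair did not overlap.

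Col4a5 and Col4a6 encode the chains of a rarer type IV network. Col4a6 measured 0.014 RPKM in the sham library, 0.038 at 4 hours, 0.022 on day 1, 0.125 on day 3 and 0.212 on day 10, from 5, 14, 8, 42 and 81 reads. Its day 10 ratio of 15.2 has an interval from 4.42 to 94.6 because of the 5 sham reads. Col4a5 measured 0.040, 0.062, 0.035, 0.120 and 0.177 RPKM, with a day 10 ratio of 4.44 (1.81 to 13.1). In the second rule, 4 of the 6 basement membrane collagens were higher on day 3 (Col4a1, Col4a5, Col4a6 and Col18a1) and 4 on day 10 (Col4a5, Col4a6, Col15a1 and Col18a1), unchanged in number after rescaling, beside 13.5% and 8.66% of all genes.

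The laminins showed no such late difference. Lamb2, the beta chain of mature vessel and synaptic laminins, and Lamc1, the gamma chain of most laminins, were the only laminins at 1 RPKM or more in a library. Lamb2 (chr9:108479736-108490530, plus strand) measured 1.87 RPKM in the sham library, 1.85 at 4 hours, 0.948 on day 1, 2.33 on day 3 and 2.99 on day 10. Lamc1 (chr1:153218922-153332786, minus strand) measured 1.28, 1.90, 0.728, 1.08 and 1.51 RPKM. Both were lowest on day 1, where the ratio to sham was 0.508 (0.409 to 0.628; rescaled 0.547) for Lamb2 and 0.570 (0.459 to 0.705; rescaled 0.613) for Lamc1, short of the 2-fold limit. On day 10 Lamb2 had a ratio of 1.60 (1.37 to 1.88; rescaled 1.44), and the interval of Lamc1, 0.994 to 1.41, included 1.

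The scarcer laminins that passed on day 1 were all lower. Lamc3, the gamma chain of laminins in the retina and at the cortical surface, measured 0.566 RPKM in the sham library, 0.414 at 4 hours, 0.113 on day 1, 0.272 on day 3 and 0.588 on day 10. Its ratio was 0.200 (0.109 to 0.346; rescaled 0.216) on day 1, 0.480 (0.312 to 0.724; rescaled 0.435) on day 3 and 1.04 (0.755 to 1.43) on day 10, so the day 10 level lay near that of sham. Lama2, the alpha chain of the laminin of muscle, nerve and glial basement membranes, had a day 1 ratio of 0.362 (0.181 to 0.685), and Lamb1, the widespread beta chain, a ratio of 0.472 (0.321 to 0.683). After rescaling Lamb1 stood at 0.508, within 2-fold.

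Among the other alpha chains, Lama4, the alpha chain made by endothelial cells, was higher on day 3 with a ratio of 2.23 (1.36 to 3.78; rescaled 2.03), from 0.090 to 0.202 RPKM. Lama5, the other endothelial alpha chain, stayed between 0.267 and 0.497 RPKM over the 5 libraries, and Lama1, typical of the brain surface, between 0.048 and 0.130. Lamb3, a chain of the epithelial laminin, was highest at 4 hours, at 0.388 RPKM. It was 2.18 (1.35 to 3.58) times sham then, and 1.68 times after rescaling. On day 10, 0 of 9 laminins with recovered reads were higher or lower in the second rule, beside 8.66% and 0.595% of all genes, and their ratios ran from 0.724 for Lamb3 to 1.68 for Lama4, whose interval started at 1.00.

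Set side by side, the fibrillar collagens and the basement membrane members differed in their median day 10 ratio mainly through the laminins. The median day 10 ratio was 3.63 (rescaled 3.26) for the 10 fibrillar collagens and 1.47 (rescaled 1.32) for the 16 basement membrane members, beside 1.08 (rescaled 0.971) for all genes. Within the latter, the median was 4.16 (rescaled 3.73) for the 6 collagens and 1.16 (rescaled 1.04) for the 10 laminins. A median gives scarce and abundant genes the same weight. The abundant Col4a1 and Col4a2, at 1.78 and 1.53, lay near Lamb2 at 1.60 and below the fibrillar median. On day 3 the medians were 1.99 for the fibrillar collagens, 2.63 for the basement membrane collagens, 0.900 for the laminins and 1.10 for all genes. On day 1 they were 0.647, 1.08, 0.568 and 0.937. At 4 hours they were 1.3, 1.48, 1.08 and 1.28, and 1.00, 1.14, 0.833 and 0.992 after rescaling. All 4 stroke comparisons share the 1 sham library, so its counting error enters each of them.

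**Figure D3:**
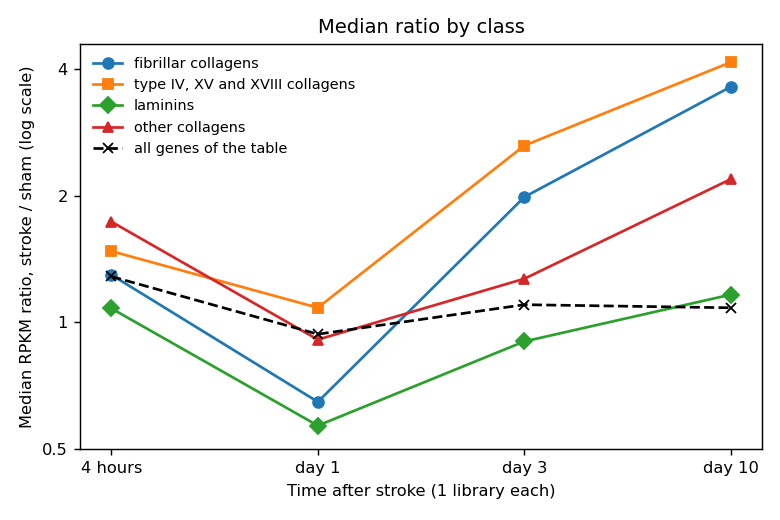
Median RPKM ratio to sham (vertical log axis) of each class of members and of all genes (dashed) in the 4 stroke libraries (horizontal axis, evenly spaced, 1 library each). On day 10 the fibrillar and basement membrane collagens stand at 3.63 and 4.16, and the laminins at 1.16 beside 1.08 for all genes.

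In levels the order of the classes moved too. The 10 fibrillar collagens summed to 2.37 RPKM in the sham library, 3.70 at 4 hours, 1.28 on day 1, 3.00 on day 3 and 9.62 on day 10. The 6 basement membrane collagens summed to 4.36, 5.96, 5.57, 8.46 and 8.74 RPKM, the 10 laminins to 5.08, 5.79, 2.76, 5.14 and 6.67, and the 18 other collagens to 6.42, 10.6, 6.14, 7.68 and 10.6. The fibrillar sum was thus the lowest of these 4 in the sham library and the second highest on day 10. Col1a1 and Col3a1 made up most of the fibrillar sum on day 10, with 3.38 and 2.24 of the 9.62 RPKM.

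The chains of a trimer did not keep a fixed ratio in every case. RPKM of Col1a1 over Col1a2 was 1.4 (0.951 to 2.04) in the sham library, 1.21 (0.853 to 1.70) at 4 hours, 1.56 (0.911 to 2.65) on day 1, 2.08 (1.52 to 2.83) on day 3 and 2.91 (2.54 to 3.34) on day 10. The day 10 interval lay above the sham interval. The protein has a pair of Col1a1 chains for each Col1a2 chain. Type IV collagen also holds a pair of alpha1 chains for each alpha2 chain, and Col4a1 over Col4a2 was 0.696 (0.592 to 0.819), 0.755, 0.790, 0.997 (0.884 to 1.13) and 0.813 (0.720 to 0.917) in the same order. The sizes of these ratios depend on the exon lengths used for RPKM, and only their differences between libraries can be read. Lamb2 over Lamb1, the beta chains that replace each other in laminins, was 4.59 (3.6 to 5.91) in the sham library, 5.38 at 4 hours, 4.95 on day 1, 7.07 (5.42 to 9.32) on day 3 and 6.22 on day 10, with overlapping sham and day 3 intervals.

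The 18 other collagens are those of beaded filaments, of fibril surfaces, of short-chain networks and of cell membranes, with Col7a1 and Col26a1 outside these groups. Those at 1 RPKM or more in a library were Col6a1, Col9a2, Col9a3, Col16a1 and Col20a1. Col16a1, a fibril-associated collagen, measured 0.330 RPKM in the sham library, 0.503 at 4 hours, 0.940 on day 1, 1.33 on day 3 and 1.13 on day 10. It was higher under the second rule at the last 3 times, with ratios of 2.85 (2.06 to 4.01) on day 1, 4.02 (2.93 to 5.6) on day 3 and 3.43 (2.50 to 4.79) on day 10. Col20a1, also fibril-associated, went from 0.180 RPKM in the sham library to 0.593 on day 3 and 1.32 on day 10, a ratio of 7.32 that has no counting interval. Col6a1, a chain of the beaded filament collagen of type VI, was highest at 4 hours, at 1.90 RPKM against 1.00 in the sham library, and measured 1.55 on day 10. Col9a2 and Col9a3, chains of the cartilage collagen of type IX, differed from each other: Col9a2 stayed between 1.49 and 2.27 RPKM, and Col9a3 was 2.43 RPKM at 4 hours against 1.09 in the sham library, a ratio of 2.24 (1.75 to 2.88; rescaled 1.73).

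The other members of this class named here were below 1 RPKM and were chosen after their values were seen, because they passed the second rule or, for Col8a1, as the partner of one that did. Higher on day 10 were Col6a3, with a ratio of 7.05 (3.10 to 19.2), Col13a1 with 4.12 (1.52 to 13.9), Col7a1, the anchoring fibril collagen, with 3.84 (2.12 to 7.46), and Col12a1 with 2.67 (1.51 to 4.95). Col6a4 was lower, with 0.442 (0.210 to 0.885). With Col16a1, 5 of 15 other collagens with recovered reads were therefore higher on day 10 and 1 lower, beside 8.66% and 0.595% of all genes. At 4 hours the pair of short-chain collagens, known from the corneal endothelium and vessel walls, stood out. Col8a2 was 0.089 RPKM in the sham library, 0.499 at 4 hours, 0.077 on day 1, 0.032 on day 3 and 0.056 on day 10, a 4 hour ratio of 5.59 (2.73 to 12.9; rescaled 4.32). Col8a1 measured 0.026, 0.200, 0.017, 0.042 and 0.065 RPKM, a 4 hour ratio of 7.66 without an interval. On day 1 the ratio of Col8a2 was 0.862, with an interval (0.289 to 2.52) that included 1, and that of Col8a1 was 0.647 without an interval.

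Over all 38 members with recovered reads, 5 were higher and 0 lower at 4 hours (Col6a3, Col8a2, Col9a3, Col12a1 and Lamb3), beside 7.7% of all genes higher and 2.78% lower. After rescaling, Col8a2 was the 1 member higher and Col7a1 the 1 lower, at 4.32 and 0.324, beside 2.12% of all genes higher and 6.05% lower, and the interval of Col6a3 included 1. On day 1, 2 were higher (Col12a1 and Col16a1) and 5 lower (Col1a2, Col15a1, Lama2, Lamb1 and Lamc3), beside 5.7% and 6.44% of all genes, and after rescaling 2 were higher and 3 lower, beside 7.25% and 4.65%. On day 3, 10 were higher and 1, Lamc3, lower, beside 13.5% and 3.01% of all genes, and 10 and 3 after rescaling, beside 11% and 4.95%. On day 10, 16 were higher and 1 lower, beside 8.66% and 0.595%, and the counts were the same after rescaling, beside 7.25% and 1.13%.

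**Figure D4:**
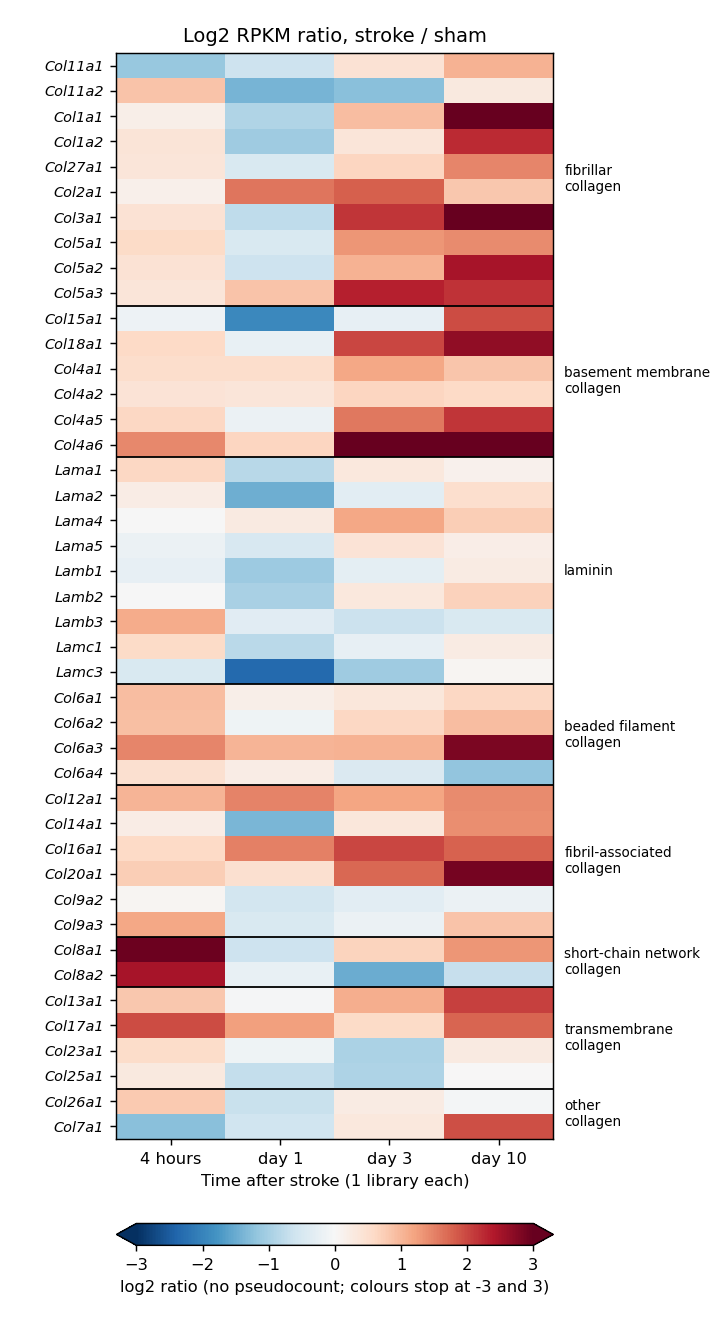
Log2 ratio of RPKM, stroke over sham and without a pseudocount, for the members reported here (vertical) in the 4 stroke libraries (horizontal), grouped by class; red is higher and blue lower than sham, and colours stop at 3 log2 units either way. The fibrillar and basement membrane collagens are mostly red on day 3 and day 10, the laminins are mostly blue on day 1, and Col8a1 and Col8a2 are red at 4 hours.

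Successive times were also compared, without the sham library. From 4 hours to day 1, 0 members were higher and 14 lower in the second rule, beside 4.25% and 15.8% of all genes; after rescaling 5 were lower and 1 higher, beside 3.93% of all genes lower and 10.0% higher. By size Col11a2 alone was lower and none higher, beside 3.79% and 1.79% of all genes. From day 1 to day 3, 14 were higher and 0 lower (13.4% and 2.26% of all genes), among them 7 fibrillar collagens, 4 basement membrane collagens and 3 laminins. After rescaling 12 were higher and 1 lower, beside 9.51% and 4.7% of all genes. Of the 12, 6 were fibrillar collagens, 4 basement membrane collagens and 2 laminins. By size none was higher or lower in that step, beside 4.96% and 0.624% of all genes. Lamb2 was 2.45 (2.00 to 3.03; rescaled 2.07) times its day 1 level on day 3. From day 3 to day 10, 10 were higher and 0 lower (2.9% and 4.68% of all genes), and 4 of these were the fibrillar Col1a1, Col1a2, Col3a1 and Col5a2. The counts were the same after rescaling, beside 2.76% and 4.9% of all genes. Col1a1 was 5.18 (4.14 to 6.55) and Col3a1 5.43 (4.31 to 6.90) times its day 3 level, and both were also higher by size, beside 0.416% of all genes higher and 1.84% lower. Of the basement membrane collagens only Col15a1 passed in that step, with 4.62 (2.86 to 7.81), and of the laminins only Lamc3, with 2.16 (1.44 to 3.30).

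Of the 44 members, 21 were highest on day 10, which is 47.7% against 15.9% of all genes, and the count was 21 under each of the 3 rescalings tried. By class these were 7 of 10 fibrillar collagens, 4 of 6 basement membrane collagens, 4 of 10 laminins and 6 of 18 other collagens. The next most frequent was 4 hours, with 15 members (34.1%) against 44% of all genes (10 members, 22.7%, against 24.4% after median-of-ratios rescaling), then day 3 with 7 members (15.9%) against 24.5%, and day 1 with 1 member against 9.17%. In the sham library 0 members were highest, against 6.42% of all genes, and 3 were after median-of-ratios rescaling. Day 1 was the lowest library for 24 members (54.5%, against 35.7% of all genes), and for 21 after median-of-ratios rescaling, where the share of all genes was 18.6%. The sham library was the lowest for 11 members (23% of all genes), day 3 for 5 (17.4%), 4 hours for 3 (12.6%) and day 10 for 1, Col6a4 (11.3%).

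Genes that make, bind or sense collagen were read from lists chosen by role, by size unless stated. Below 1 RPKM that rule hides large ratios, so genes not named as higher may still differ. Of 18 measured genes of collagen processing, 1 (Loxl1) was higher by size on day 1, 5 on day 3 and 1 on day 10, and none was lower. Beside these, 2.22%, 6.01% and 2.79% of all genes were higher at those times. These shares hold for the other lists too. After rescaling 2 were higher on day 1 (Serpinh1 and Loxl1), 4 on day 3, without Loxl1, and 0 on day 10. Plod1, a lysyl hydroxylase, measured 2.86 RPKM in the sham library and 12.8 on day 3. Serpinh1, the collagen chaperone of the endoplasmic reticulum, measured 6.12, 5.69, 12.9, 15.9 and 13.7 RPKM from sham to day 10, and was the gene still higher on day 10, with a log2 difference of 1.04 (rescaled 0.90). The others on day 3 were P4hb, a subunit of prolyl hydroxylase, Plod3 and the cross-linking enzyme Loxl1. The list's median log2 difference was 0.53 on day 3 (rescaled 0.44) and 0.36 on day 10 (rescaled 0.24), beside 0.05 at both times for all genes. The sum of the processing genes was highest on day 3, at 120 RPKM against 81.2 on day 10, whereas the fibrillar sum was highest on day 10. P4hb alone gave 50.4 RPKM on day 3 and 27.5 on day 10. Not all genes of the list were highest on day 3. P4ha3, Colgalt1 and Lox were highest on day 10, P4ha1, Adamts2 and Pcolce2 at 4 hours, and Adamts3 in the sham library.

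Of 9 other basement membrane genes, 0 passed by size at 4 hours, day 1 and day 3 and 1 on day 10, the collagen-binding Sparc, at 59.7 RPKM against 29.3 in the sham library, a log2 difference of 1.00 that was 0.85 after rescaling and so under the limit. Perlecan, Hspg2, measured 0.456 RPKM in the sham library, 1.08 on day 3 and 0.943 on day 10. Under the second rule Hspg2, at 2.07 (1.70 to 2.53), Nid2, at 3.07 (1.42 to 7.35), and Sparc, at 2.04 (1.94 to 2.14), were higher on day 10. The rest of that list was under 2-fold then. Of 10 partners of collagen fibres, fibronectin, Fn1, alone was higher by size, at 6.46 RPKM on day 3 and 4.63 on day 10 against 1.65 in the sham library. Its day 10 difference of 1.09 was 0.96 after rescaling, under the limit. Decorin, Dcn, which coats type I fibres, measured 0.214, 0.373, 0.518, 0.616 and 1.38 RPKM from sham to day 10 and was just under the limit on day 10, with 0.97. Of 11 measured receptors, Itgb1, the shared beta chain of collagen and laminin integrins, and Lair1, an inhibitory collagen receptor of leukocytes, were higher on day 3, and Lair1 also on day 10, where it measured 2.62 RPKM against 0.459 in the sham library. Dag1, which encodes the laminin receptor dystroglycan, measured 6.11 RPKM in the sham library, 3.45 on day 1 and 6.59 on day 10.

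Cell type markers also differed between the libraries, and their part in the results was not tested. In these bulk samples more cells of a type and more RNA per cell cannot be told apart. Beside the day 10 difference of the fibrillar collagens, the 9 measured fibroblast markers, none at 0 in any library, summed to 15.8 RPKM in the sham library, 19.8 at 4 hours, 29.3 on day 1, 34.7 on day 3 and 27.7 on day 10, and none passed by size on day 10. Mgp carried most of these sums, and without it the other 8 summed to 4.09, 6.98, 4.05, 5.85 and 8.35 RPKM, highest on day 10. By size Igf2 was higher at 4 hours (not after rescaling) and Mgp on days 1 and 3. Under the second rule Dcn, at 6.45 (4.32 to 9.96), Lum, at 3.56 (1.28 to 12.2), and Aldh1a2, at 2.70 (1.53 to 5.00), were higher on day 10. The share of all genes was 8.66%. Slc22a6 stood at 2.94 without an interval, and the remaining fibroblast markers were under 2-fold. Dcn, Lum and Fbln1 are on that list and on a partner list. The 8 macrophage and microglia markers, all higher by size on day 10 (7 after rescaling), summed to 168, 137, 201, 1211 and 1499 RPKM. Beside the basement membrane results, the 8 endothelial markers summed to 27.1, 19.5, 21.9, 52.9 and 43.0 RPKM, with Cldn5 higher by size on day 3 (not after rescaling). Most of this was Cldn5, and the other 7 summed to 5.03, 4.33, 4.01, 7.15 and 6.13 RPKM. Their day 3 ratios ran from 0.556 for Flt1 to 2.15 for Tie1. The 10 pericyte and smooth muscle markers summed to 37.8, 38.4, 50.1, 102 and 43.2 RPKM, with Tagln, Acta2 and Anpep higher by size on day 3. Without Tagln and Vtn, which made up most of that sum, the other 8 gave 8.28, 9.84, 6.95, 15.8 and 11.5 RPKM. The day 3 ratios of the 10 differed widely. Abcc9, Kcnj8 and Pdgfrb stood at 0.372, 0.632 and 1.02, with Abcc9 at 0.040 RPKM. Myh11, Rgs5 and Vtn stood at 1.34, 1.43 and 1.52. Cspg4, Acta2, Tagln and Anpep stood at 2.58, 2.75, 7.86 and 8.09. Beside the 4 hour and day 1 results, the 6 choroid plexus markers summed to 79.3, 740, 305, 20.5 and 3.23 RPKM, carried by Ttr at 77.4, 729, 303, 19.6 and 0.205 RPKM, and Otx2 was at 0 on day 1. The 9 medium spiny neuron markers, of which 5 were lower by size on day 1, summed to 1806, 2319, 901, 1380 and 1543 RPKM, and 3 were lower on day 1 after rescaling. The 6 cortical excitatory neuron markers summed to 67.1, 105, 100, 63.3 and 57.6 RPKM, with Nrn1 higher by size at 4 hours. The 6 astrocyte markers summed to 163, 83.2, 312, 560 and 302 RPKM. Gfap gave most of this except at 4 hours, when it measured 26.3 RPKM beside 34.2 for Slc1a2. Gfap was lower by size at 4 hours and higher at the later times. The other markers did not all follow it. Slc1a2, Slc1a3 and Gja1 had ratios of 0.539, 0.552 and 0.409 on day 1 and 0.493, 0.599 and 0.649 on day 3. Aqp4 and Aldh1l1 had 0.805 and 1.16 on day 1 and 2.02 and 2.14 on day 3. The choroid plexus lies in the ventricle next to the striatum, and 5 of its 6 markers were highest at 4 hours. The exception, Aqp1, measured 1.19 RPKM at 4 hours and 2.45 on day 10. Without Ttr the other 5 markers summed to 1.89, 10.5, 2.68, 0.809 and 3.03 RPKM. Of the 44 members, 15 (34.1%) were also highest at 4 hours, beside 44% of all genes. After median-of-ratios rescaling 10 members (22.7%) were, beside 24.4% of all genes.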

How the data were processed

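Total RNA libraries of pooled mouse caudate putamen (5 groups, 1 library each) were analysed. The authors deposited RPKM per gene for the 5 libraries and, per the file headers, GFOLD values, which are log2 differences shrunk for low counts. Per the submitters' processing notes the tools were Trimmomatic 0.36, HISAT2 2.1.0 and StringTie 1.3.4d with build GRCm38. The annotation, and whether strand was used in counting, are not given in the sources used here. Of the 19221 genes, 19158 matched GENCODE M21 by identifier. RPKM multiplied by exon length and a library total came within 0.02 of a whole number in 90.4% to 90.5% of values below 5000 reads, and did so in all 5 libraries for 17303 genes. Of low read counts 52.8% to 54.3% were even, so reads were divided by 2 before exact conditional binomial 95% intervals were computed, which widens them.

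The differences were log2((RPKM + 1)/(RPKM + 1)) with a limit of 1, and the plain ratio with a limit of 2. No p-values were computed. Scripts were tested on simulated data. The members, classes and lists were chosen with earlier results of these data known. Named by a fixed rule are every fibrillar, type IV, XV and XVIII collagen and laminin gene and other members at 1 RPKM or more in a library. Further members below 1 RPKM were named after their values were seen, because they passed the second rule, or as a partner or genome neighbour. The values of 1 member are not reported here, although it is in the counts, sums and medians. Alternatives were other pseudocounts, limits, scalings, a level filter, other class borders and the authors' GFOLD. Python 3.11.15, pandas 2.3.3, scipy 1.17.1 and matplotlib 3.10.9 were used.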

Additional observations from a re-analysis of the deposited data

Results flagged for a closer look

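Of the members, 2 lay below sham at day 1 and above it at day 10, each by at least 2-fold with a counting interval that excluded 1. Of all genes with recovered reads, 6.44% were lower on day 1 and 8.66% higher on day 10. The share with both is not given here, so the count of 2 cannot be set against it. The Col15a1 ratio was 0.261 (0.096 to 0.618) at day 1 and 3.87 (2.50 to 6.19) at day 10. The Col1a2 ratio was 0.481 (0.309 to 0.736) at day 1 and 4.73 (3.64 to 6.23) at day 10. After median-of-ratios rescaling Col1a2 stood at 0.518 at day 1, within 2-fold, and Col15a1 at 0.281. With 1 library at each time the difference between the times was not tested.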

How the results depend on the processing

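No paired analysis was possible because each group is 1 library, and for the same reason no leave-one-out values exist. No member past a limit changed its direction under the alternatives run.

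Counts of members by size depended on the pseudocount. Shares of all genes under these alternatives are not given here, so the counts cannot be compared with all genes. At 0.1, 3 members were higher at 4 hours, 1 on day 1, 6 on day 3 and 13 on day 10 against sham, and 2 were lower on day 1 and 1 on day 3. Of those, 2 fibrillar collagens and 2 basement membrane members were higher on day 3, and 5 and 3 on day 10. Between times, 7 were lower from 4 hours to day 1, 6 higher from day 1 to day 3 and 6 higher from day 3 to day 10. At 0.5, 1 member was higher on day 3, 5 on day 10, 1 of them a basement membrane member, and 2 were lower from 4 hours to day 1. In the authors' deposited table (GFOLD past 1), 2 members were higher at 4 hours, 1 on day 1, 6 on day 3 and 13 on day 10, and 2 were lower on day 1. Of those, 2 fibrillar and 2 basement membrane members were higher on day 3, and 5 and 4 on day 10. There, 6 were lower from 4 hours to day 1, 5 higher from day 1 to day 3 and 6 from day 3 to day 10.

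With genes at a mean of at least 1 RPKM, or a log2 limit of 2, the counts on day 10 against sham and against day 3 were 0, fibrillar collagens included. At a limit of 1.5 the count on day 10 against day 3 was 0. Col11a2, lower by size from 4 hours to day 1, gave 0 under limits of 1.5 and 2 and under the median-of-ratios and trimmed-mean scalings. It has no counting interval, so requiring one also gave 0 by construction.

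Under the second rule, each of the 3 scalings left 1 member higher at 4 hours and 0 of the basement membrane members, gave 1 higher from 4 hours to day 1 and gave 3 lower on day 3. Median-of-ratios and trimmed-mean scalings gave 1 member lower at 4 hours, 3 lower on day 1 with 0 fibrillar collagens, 1 lower from day 1 to day 3, and 5 and 6 lower from 4 hours to day 1. The cause of these differences was not tested. Depth limits the scarce members most, since Col4a6 had 5 reads in the sham library.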

Other observations

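Pairs of members that lie within 100 kb of each other in the genome (GRCm38) are given with their day 10 ratios. Col3a1 and Col5a2, fibrillar genes tail to tail on chromosome 1 with 24614 bases between them, stood at 24.1 and 5.56. Col4a6 and Col4a5, head to head on chromosome X with 1308 bases between them, stood at 15.2 and 4.44, and Col4a1 and Col4a2, head to head on chromosome 8 with overlapping first exons, at 1.78 and 1.53. Col6a1 and Col6a2 on chromosome 10 stood at 1.55 and 1.89.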
